A study of Rattus norvegicus with 9 samples.

Results

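Transcript levels of 5 genes of leukocyte recruitment and complement were described in rat kidney: Ccl2 (ENSRNOG00000007159), Icam1 (ENSRNOG00000020679), C3 (ENSRNOG00000046834), Ptprc (ENSRNOG00000000655) and Cd68 (ENSRNOG00000037563). They were taken by identifier and not by a cut on their values, although earlier results of these data were known when they were chosen. All 5 were found among the 22637 rows of the deposited table. The table holds Ensembl identifiers alone, and the symbols came with the definition of the set. All 5 passed the filter on low counts, as did 17584 genes in all. The kidneys came from SD (Sprague-Dawley) rats, and polyadenylated RNA was sequenced in 9 libraries in 3 groups of 3. Control kidneys carry no further description. CKD kidneys come from a model of chronic kidney disease whose induction the sources used here do not describe. MSC kidneys were treated with mesenchymal stem cells, stromal cells used in cell therapy, which by the series title were infused under ultrasound guidance into the renal parenchyma of the CKD model. The age of the rats, the source and dose of the cells, the time of sampling and whether replicates were separate animals are likewise not given there. The p-values thus rest on the spread among these libraries alone, part of which may be technical.

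White blood cells enter a tissue when its cells release chemokines and display adhesion molecules on the vessel wall, and complement proteins mark targets and call in further cells. Ccl2 is a chemokine that draws in monocytes, and injured kidney tubules are a known source of it. Icam1 is an adhesion molecule to which leukocyte integrins bind. C3 is the central protein of the complement cascade, made mainly in the liver and also by tubular cells. Ptprc encodes CD45, a surface phosphatase carried by nearly all white blood cells, and Cd68 encodes a lysosomal glycoprotein abundant in macrophages. In whole-kidney RNA, more cells of a type and more RNA per cell cannot be told apart, so the values below are transcript levels and not cell counts.

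The total count per library ran from 47633344 to 58546847 and was lowest in the MSC group. Levels are given as CPM, that is, counts put on 1 common library size with TMM factors. The lowest count of any of the 5 genes was 44, for Ccl2 in CKD replicate 3, where the SD from counting alone would be 15.1% of the value. In each group that share, taken at the lowest count of the gene, was below the gene's coefficient of variation between libraries. Because the other identifiers of the table could not be paired with symbols, kidney markers, markers of other cell types and further genes of these pathways were not examined here.

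All 5 genes were highest in the MSC kidneys. Each MSC library lay above each CKD and each control library for all 5 genes. Of all tested genes, 22.1% had all MSC libraries above all CKD ones and 27.2% had them above all controls. Against control kidneys all 5 passed the test, with folds from 3.98 for Icam1 to 12.2 for C3. Against CKD kidneys Ccl2 and Icam1 passed it, and C3, Ptprc and Cd68 had folds of 2.59 to 3.39 that did not. Of all tested genes, 16.9% were called higher against control and 11.4% against CKD kidneys. Between CKD and control kidneys none passed. The CKD libraries were uneven. For all 5 genes replicate 2 was the highest of them and replicate 3 the lowest, as for 21.2% of all tested genes. CKD replicate 2 lay above every control and below every MSC library for all 5, as for 10.4% of all tested genes.

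**Figure D1:**
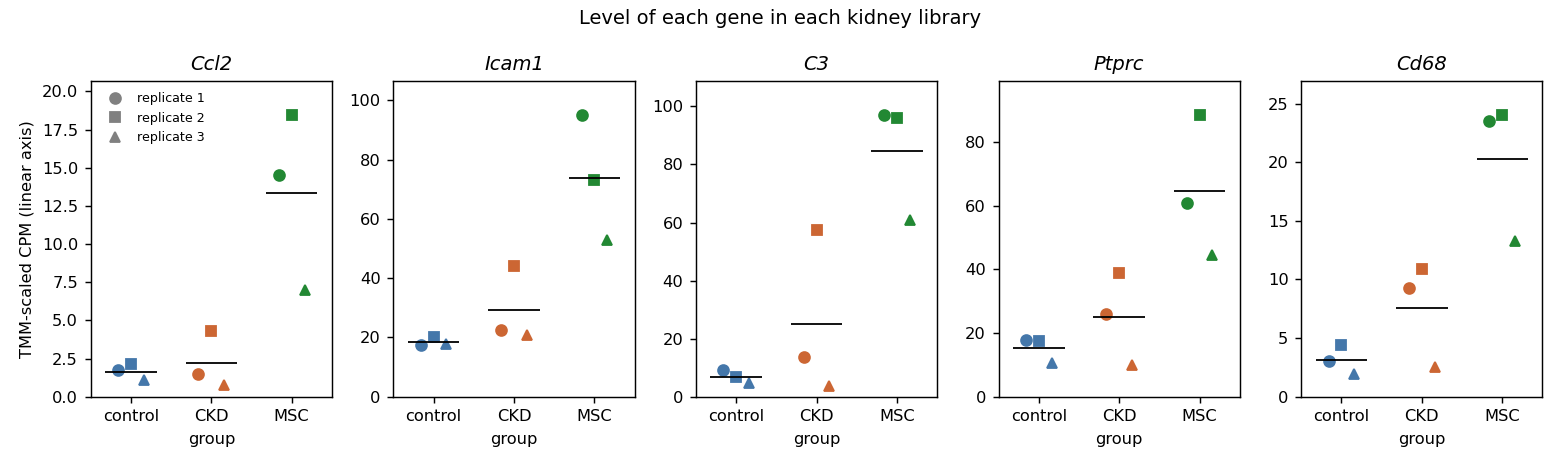
TMM-scaled CPM (linear axis from 0, a scale of its own for each gene) of Ccl2, Icam1, C3, Ptprc and Cd68 in control, CKD and MSC kidneys; each marker is 1 library, its shape gives the replicate number and the line is the mean of 3. The 3 MSC libraries lie above all other libraries in each panel, and CKD replicate 2 (square) is the highest CKD library in each.

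The letters of the promoters were searched for motifs of inflammatory and myeloid transcription factors. RefSeq promoters of the rat build GRCr8, a newer build than the Rnor_6.0 of the counts, were matched by symbol for 4 of the 5 genes, Icam1, C3, Ptprc and Cd68. Each window runs from 250 bases before to 50 bases after the annotated start, and both strands were searched. Below are the 250 bases before the start, 5′ to 3′ on the strand of the gene, for the 3 promoters with a match, in capitals where a motif matched. They lie at chr8:27829595-27829844 (plus strand) for Icam1, chr13:52259747-52259996 (minus strand) for Ptprc and chr10:54882442-54882691 (minus strand) for Cd68.
Icam1: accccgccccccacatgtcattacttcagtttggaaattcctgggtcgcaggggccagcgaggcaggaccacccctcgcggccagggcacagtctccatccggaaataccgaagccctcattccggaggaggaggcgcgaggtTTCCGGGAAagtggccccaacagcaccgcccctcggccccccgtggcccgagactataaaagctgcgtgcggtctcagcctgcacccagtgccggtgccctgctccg
Ptprc: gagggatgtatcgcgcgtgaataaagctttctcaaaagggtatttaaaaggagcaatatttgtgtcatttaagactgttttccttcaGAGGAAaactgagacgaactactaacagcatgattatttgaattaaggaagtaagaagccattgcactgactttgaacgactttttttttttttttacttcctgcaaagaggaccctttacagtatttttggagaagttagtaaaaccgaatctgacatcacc
Cd68: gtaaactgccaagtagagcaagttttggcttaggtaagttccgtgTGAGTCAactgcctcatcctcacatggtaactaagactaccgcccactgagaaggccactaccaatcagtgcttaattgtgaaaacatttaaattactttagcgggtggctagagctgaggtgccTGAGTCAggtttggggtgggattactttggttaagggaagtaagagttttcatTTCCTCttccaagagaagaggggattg
The capitals in Icam1 mark a match to the STAT motif TTCNNNGAA, which 8.87% of the 33469 promoters of the table hold. Those in Ptprc mark GAGGAA, the core of sites for PU.1, a factor of myeloid cells, which 27.6% of promoters hold. In Cd68 the capitals mark 2 matches to the AP-1 motif TGANTCA, held by 7.33% of promoters, and GAGGAA on the opposite strand; a further GAGGAA lies just after the start, outside the bases shown. The NF-kappa B consensus (in 4.18% of promoters) and the interferon-stimulated response element (3.92%) had no match in these 4 windows. The C3 window had no match to any of the 5 motifs. For NF-kappa B only exact matches to GGGRNWYYCC were sought (R is A or G, W is A or T, Y is C or T). The letters tggaaattcc in Icam1 differ from that pattern at the first base only, so sites with other letters were missed by this search. No 2 motifs overlapped in these windows. A match or its absence describes these letters only.

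Ccl2, the monocyte chemokine, had 92, 115 and 53 counts in controls. Its level was 1.73, 2.14 and 1.09 CPM in control replicates 1, 2 and 3, and 1.49, 4.32 and 0.791 CPM in the CKD replicates. In the MSC replicates it was 14.5, 18.5 and 6.97 CPM. The MSC values overlapped with neither other group, whereas CKD values lay on both sides of the control values. The means were 1.65 ± 0.529 CPM for control, 2.20 ± 1.87 for CKD and 13.3 ± 5.85 for MSC kidneys (SD, n = 3 each). Ccl2 was 6.03-fold higher in MSC than in CKD kidneys, a log2 fold of 2.59 ± 0.62 (SE, edgeR quasi-likelihood test, adjusted p = 0.0207). Against controls it was 8.05-fold higher (log2 fold 3.01 ± 0.63, edgeR adjusted p = 0.0101). The difference between CKD and control kidneys was within their spread for Ccl2 (log2 fold 0.42 ± 0.60, edgeR adjusted p = 0.9), and the 95% interval of the fold ran from 0.520 to 3.42. Leaving out CKD replicate 2 turned that log2 fold to -0.53 and raised the one between MSC and CKD kidneys to 3.54. That library was the highest of the CKD group, so the direction of both shifts was set in advance.

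Icam1, the adhesion molecule, was the most even of the 5 in controls, at 17.5, 20.3 and 17.8 CPM. CKD replicates had 22.5, 44.2 and 20.8 CPM and MSC replicates 95.1, 73.1 and 53.0 CPM. Here the 3 groups did not overlap at all, although the lowest CKD library stood just above the highest control. Of the 5 genes 1, Icam1, had no overlap between CKD and control kidneys, and 5.96% of all tested genes had none in that direction. The group means were 18.5 ± 1.51, 29.2 ± 13.1 and 73.7 ± 21.1 CPM in control, CKD and MSC kidneys (SD, n = 3 each). The log2 fold was 1.34 ± 0.30 between MSC and CKD kidneys (edgeR adjusted p = 0.0175) and 1.99 ± 0.31 between MSC and control kidneys (edgeR adjusted p = 0.00451), or 2.53-fold and 3.98-fold. Between CKD and control kidneys it was 0.65 ± 0.30, which did not pass the threshold (edgeR adjusted p = 0.756).

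C3, the central complement component, had the widest range of the 5 among CKD kidneys. It stood at 9.32, 6.78 and 4.74 CPM in controls, at 13.9, 57.3 and 3.74 CPM in CKD kidneys and at 97.1, 96.0 and 61.0 CPM in MSC kidneys. CKD replicate 2 was 15.3 times as high as CKD replicate 3 and stood just below the lowest MSC library, while CKD replicate 3 was below all controls. The means were 6.95 ± 2.30 CPM for control, 25.0 ± 28.5 for CKD and 84.7 ± 20.5 for MSC kidneys (SD, n = 3 each). Within the CKD group the SD of log2 CPM of C3 was 1.96, larger than that of 98% of all tested genes. C3 was 12.2-fold higher in MSC than in control kidneys (log2 fold 3.61 ± 0.83, edgeR adjusted p = 0.0137). The log2 fold between MSC and CKD kidneys was 1.76 ± 0.77, and it did not pass (edgeR adjusted p = 0.125). Between CKD and control kidneys the log2 fold was 1.85 ± 0.78 (edgeR adjusted p = 0.756). Leaving out CKD replicate 2 gave 3.26 (edgeR adjusted p = 0.00757) for MSC against CKD and 0.34 for CKD against control. As the highest CKD library was left out, the direction of both shifts was set in advance. Leaving out any other library gave an edgeR adjusted p of 0.135 to 0.289 for MSC against CKD. The call against controls was lost without control replicate 3 (log2 fold 3.41, edgeR adjusted p = 0.0523).

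Ptprc, the marker carried by nearly all white blood cells, had 17.7, 17.6 and 10.6 CPM in controls and 25.9, 38.8 and 9.96 CPM in CKD kidneys. In MSC kidneys it had 60.9, 88.4 and 44.5 CPM. CKD replicates 1 and 2 lay above all controls and CKD replicate 3 below them. Means were 15.3 ± 4.09, 24.9 ± 14.5 and 64.6 ± 22.2 CPM in control, CKD and MSC kidneys (SD, n = 3 each). Ptprc was 4.21-fold higher in MSC than in control kidneys (log2 fold 2.08 ± 0.46, edgeR adjusted p = 0.0123). Against CKD kidneys its log2 fold of 1.38 ± 0.45 lay just outside the threshold (edgeR adjusted p = 0.0565). With CKD replicate 2 left out that value was 1.85 (edgeR adjusted p = 0.0232). This was the highest CKD library, so a rise was set in advance. With any other library left out the edgeR adjusted p was 0.0515 to 0.174. Between CKD and control kidneys the log2 fold was 0.70 ± 0.45 (edgeR adjusted p = 0.791). With CKD replicate 2 left out it was 0.23.

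Cd68, the macrophage glycoprotein, had 3.05, 4.42 and 1.93 CPM in controls, 9.31, 10.9 and 2.55 CPM in CKD kidneys and 23.5, 24.0 and 13.3 CPM in MSC kidneys. Again CKD replicates 1 and 2 stood above all controls and CKD replicate 3 among them. Means were 3.13 ± 1.25, 7.59 ± 4.43 and 20.3 ± 6.06 CPM in the same order of groups (SD, n = 3 each). Cd68 was 6.46-fold higher in MSC than in control kidneys (log2 fold 2.69 ± 0.54, edgeR adjusted p = 0.0087). Between MSC and CKD kidneys the log2 fold was 1.42 ± 0.51 and missed the threshold (edgeR adjusted p = 0.0743). Between CKD and control kidneys it was 1.28 ± 0.52, with a 95% interval of the fold from 1.08 to 5.43 before adjustment and an edgeR adjusted p of 0.756. Without CKD replicate 2 that log2 fold was 0.92.

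**Figure D2:**
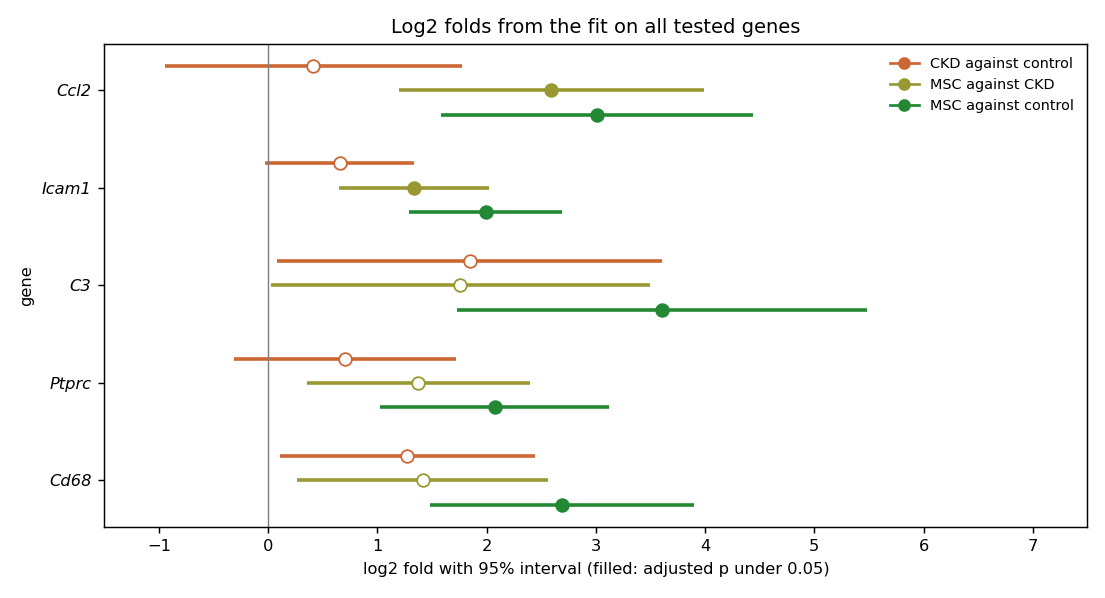
Log2 fold of each gene (points) with its 95% interval (lines) in CKD against control, MSC against CKD and MSC against control kidneys, from the edgeR fit on all 17584 tested genes; filled points have an adjusted p under 0.05. All 5 points for MSC against control are filled, 2 (Ccl2 and Icam1) for MSC against CKD and 0 for CKD against control.

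The question put to CKD and control kidneys was what differs in the disease model. Of the 5 genes 0 passed the test, and of all tested genes 0% did (edgeR quasi-likelihood test, adjusted p under 0.05). Before adjustment C3 and Cd68 had p under 0.05 in edgeR's test, as had 6.55% of all tested genes. DESeq2 and limma-voom also called 0 of the 5, with 71 and 0 genes called in all. The sign of the fold was positive for all 5, with a median log2 fold of 0.70 against 0.0045 for all tested genes. Without CKD replicate 2 that of Ccl2 turned negative and those of the other 4 genes remained positive, at 0.22 (Icam1) to 0.92 (Cd68).

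MSC kidneys were set against CKD kidneys to see what goes with the treatment, infusion and cells together. No group is labelled as infused without cells, so the infusion and the cells cannot be told apart here. The test called 2 of the 5 genes higher, Ccl2 and Icam1, and 11.4% of all tested genes were called higher (edgeR quasi-likelihood test). In 5 of 5 the MSC values lay above all CKD values, as they did in 22.1% of all tested genes. The median log2 fold of the 5 was 1.42, against 0.0039 over all genes. The folds of the 5 exceeded those of 89.8% (Icam1) to 97.1% (Ccl2) of the tested genes. Both calls were lost when 1 of 4 libraries was left out. For Ccl2 the edgeR adjusted p was 0.0735 and 0.0529 with CKD replicate 1 or CKD replicate 3 omitted, and 0.0542 and 0.0689 with MSC replicate 1 or MSC replicate 2 omitted. For Icam1 the same omissions gave edgeR adjusted p of 0.063, 0.0596, 0.0563 and 0.0524. The number of called genes among the 5 was then 0 each time. Calls over all tested genes, in either direction, then numbered 1499 to 1961, against 4010 with all libraries. Without CKD replicate 2, the highest CKD library for all 5, 4 of the 5 were called, and 4652 genes in all. DESeq2 called 4 of the 5 and limma-voom all 5, with 5571 and 4618 genes called in all.

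The last comparison, of MSC with control kidneys, gives the distance of the treated kidneys from the controls. All 5 genes were called higher, against 16.9% of all tested genes, and for 5 of 5 each MSC value lay above each control value, as for 27.2% of all tested genes. The median log2 fold of the 5 was 2.69, and that of all tested genes -0.0097. C3 had the highest fold of the 5, above 97.8% of tested genes, and Icam1 the lowest, above 91.7%. This comparison shares its MSC libraries with that against CKD kidneys and its controls with that of CKD against control, so the 3 are not independent.

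**Figure D3:**
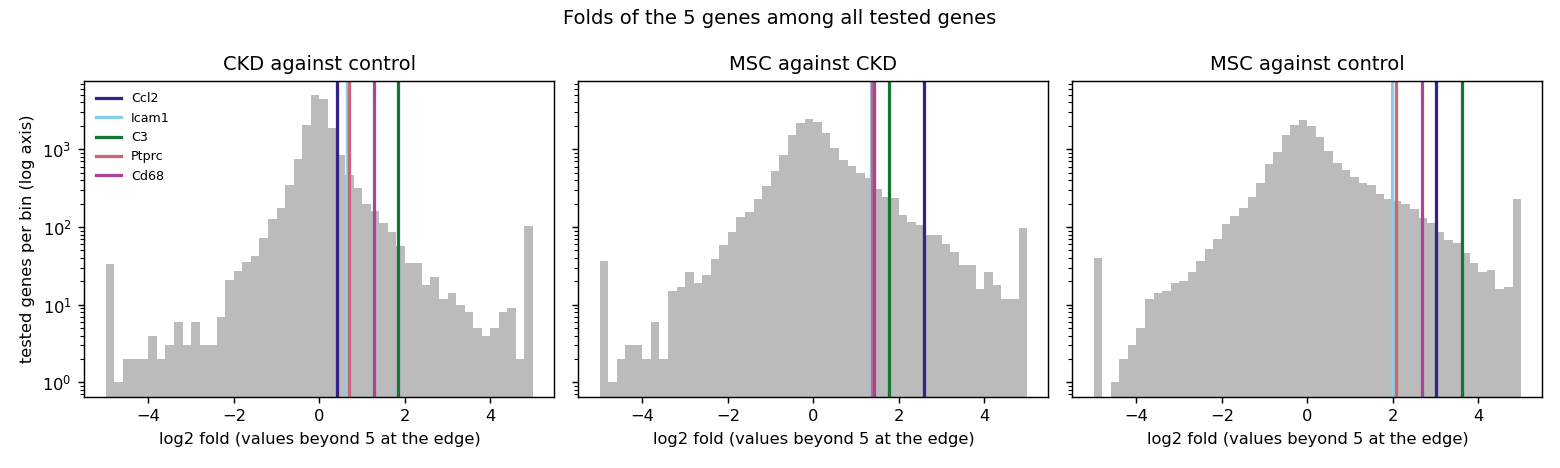
Distribution of log2 folds of all 17584 tested genes (grey, log axis of gene numbers) in each comparison, with the 5 genes as vertical lines. The lines lie at 0.42 to 1.85 for CKD against control, at 1.34 to 2.59 for MSC against CKD and at 1.99 to 3.61 for MSC against control.

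The order of the libraries within a group was the same for all 5 genes in CKD kidneys and not in the other groups. In CKD kidneys replicate 2 was the highest and replicate 3 the lowest for 5 of 5 genes, an order that 21.2% of all tested genes shared. On the log2 scale CKD replicate 2 stood above the control mean by 1.25 (Icam1) to 3.09 (C3), and CKD replicate 1 differed from it by -0.091 (Ccl2) to 1.64 (Cd68). CKD replicate 3 stood at -0.97 (Ccl2) to -0.21 (Cd68) relative to that mean for 4 genes and at 0.17 for Icam1. For those 4 genes it lay within or below the range of the controls, as for 73.8% of all tested genes. CKD replicate 2 lay above every control and below every MSC library for all 5 genes, and for 10.4% of tested genes. The orders counted here were named from the values of these same 5 genes. The 5 also vary together over the 9 libraries (Pearson's r of log2 CPM from 0.915 to 0.974), so they are not separate observations of an order. In MSC kidneys replicate 3 was the lowest for 5 of 5 genes, where 40% of tested genes had it lowest, and in controls replicate 3 was the lowest for all but Icam1, where 36.8% of tested genes had it lowest. The highest library was replicate 1 or replicate 2 in both groups, depending on the gene. Replicate 3 was the lowest in all 3 groups for 4 of the 5 genes and for 10% of tested genes. The labels give replicates no order and do not say that a number links libraries of different groups.

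**Figure D4:**
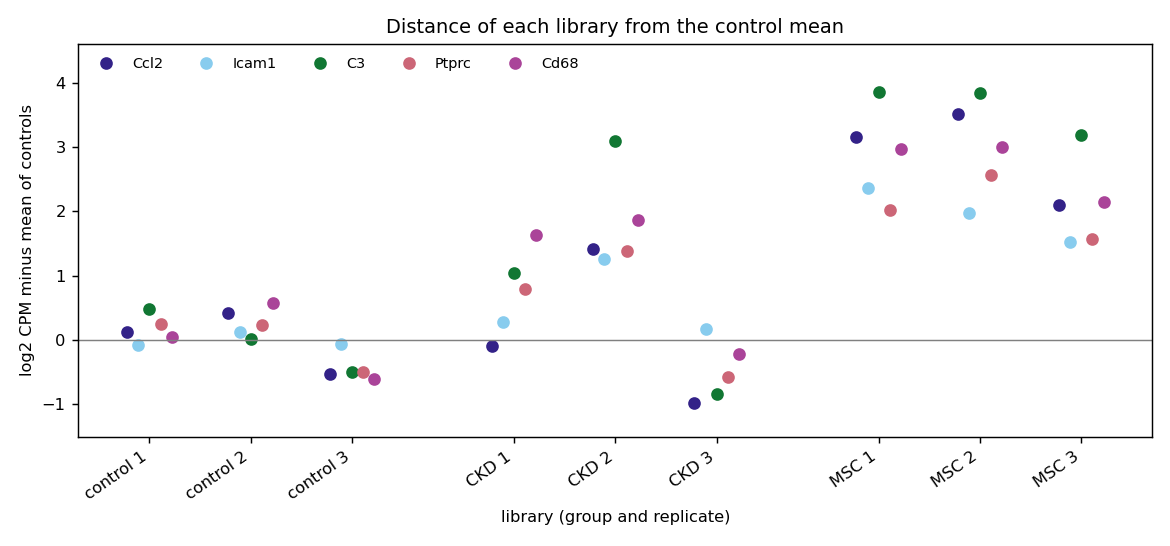
Log2 CPM of each gene minus its mean in the 3 controls (vertical axis), for each of the 9 libraries (horizontal axis, group and replicate number). CKD replicate 2 lies 1.25 to 3.09 above the control mean, CKD replicate 3 between -0.97 and 0.17, and the MSC libraries between 1.52 and 3.85.

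Each gene was also set against Ptprc in the same library, a log2 ratio in which the scaling of a library cancels but for the prior count. Two-sided exact permutation tests were used for 12 such comparisons, and with 3 against 3 libraries the smallest possible p is 0.1, so none could pass 0.05. Adjusted by Benjamini-Hochberg over the 12, the lowest p was 0.24. The share of all tested genes whose ratio to Ptprc separates the same groups was not computed. A lack of overlap in a ratio is therefore given as a description only. Relative to Ptprc, Ccl2 was 2.43 times as high in MSC as in CKD kidneys and 1.83 times as high as in controls, without overlap of the libraries in either case (exact permutation p = 0.1 each, n = 3 per group). C3 relative to Ptprc was 2.96 times as high in MSC as in control kidneys, without overlap (exact permutation p = 0.1). In CKD kidneys its log2 ratio stood 0.25, 1.71 and -0.25 from the control mean, so that replicate 2 lay within the MSC range of 1.27 to 1.82. The C3 ratio overlapped between MSC and CKD kidneys (exact permutation p = 0.3), and so did the Ccl2 ratio between CKD and control kidneys (exact permutation p = 0.3).

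Cd68 relative to Ptprc was 1.48 times as high in CKD as in control kidneys and 1.57 times as high in MSC as in control kidneys, again without overlap (exact permutation p = 0.1 for each). Unlike its level, this ratio set CKD replicate 3 above the controls too, at 0.37 on the log2 scale from their mean against 0.33 for the highest control. Cd68 had 142 counts in that library, where the SD from counting alone would be 8.39% of the value. So narrow a gap does not make that order secure. Between MSC and CKD kidneys the Cd68 ratio overlapped (log2 difference 0.085, exact permutation p = 0.6). Icam1 relative to Ptprc overlapped in all 3 comparisons, with log2 differences from -0.14 to 0.038 (exact permutation p of 0.8 or more). Its sign changed when single libraries were left out.

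**Figure D5:**
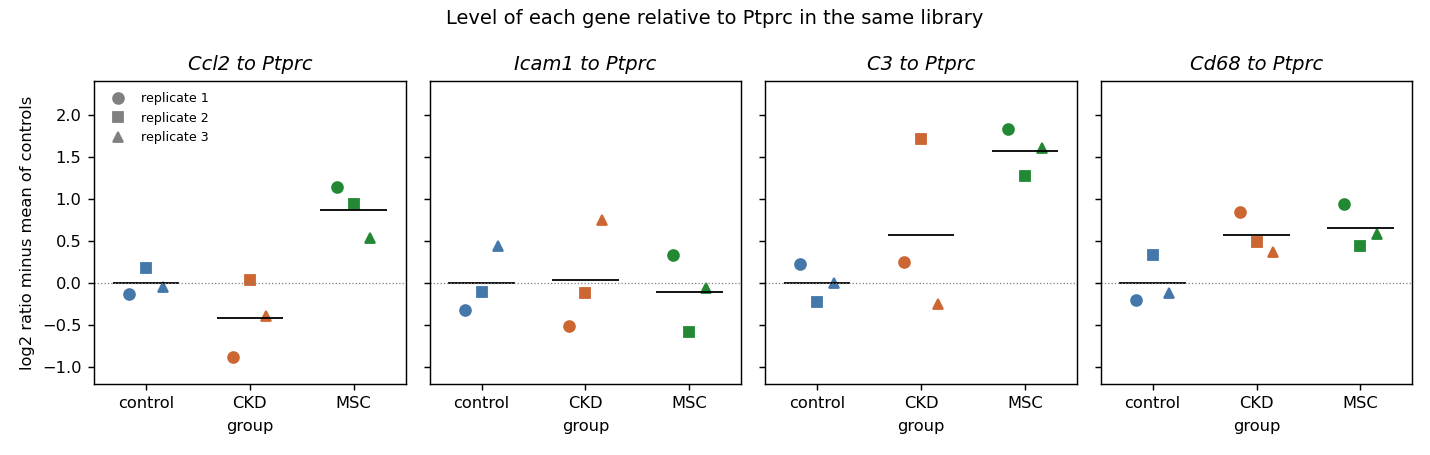
Log2 ratio of Ccl2, Icam1, C3 and Cd68 to Ptprc in the same library, minus the mean ratio of the controls (vertical axis), by group; each marker is 1 library and the line is the mean of 3. MSC libraries lie above all controls for Ccl2, C3 and Cd68 and overlap with them for Icam1.

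Likeness in pattern was measured as Pearson's r of log2 CPM over the 9 libraries, a description in which the difference between groups is included. Ranked by r to Cd68 among the 17583 other tested genes, Ptprc was at place 54. By r to C3, Ptprc was at place 64, and by r to Icam1 it was at place 1144. Over all pairs of the 5 genes the places ran from 54 to 1144, and r from 0.915 to 0.974. Cd68 was at place 1045 by r to Ccl2, and Icam1 at place 568 by r to Cd68. The identifiers most like the mean profile of the 5 genes were ENSRNOG00000018915 and ENSRNOG00000016377, which the sources used here do not pair with a symbol. ENSRNOG00000018915 (r = 0.995) averaged 2.10 ± 0.284 CPM for control, 3.04 ± 1.36 for CKD and 7.57 ± 1.48 for MSC kidneys (SD, n = 3 each). ENSRNOG00000016377 (r = 0.994) averaged 0.267 ± 0.0902, 0.786 ± 0.825 and 3.16 ± 0.928 CPM in the same groups.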

How the data were processed

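Polyadenylated RNA was measured in 9 rat kidney libraries, 3 control, 3 CKD and 3 MSC, grouped by their titles. The authors deposited 1 table of unscaled whole-number counts per Ensembl gene. Tools listed in the submitters' processing notes are cutadapt, HISAT2 and StringTie, with the build Rnor_6.0 and no versions. Per the labels' protocols the library was strand-specific. The strand setting of the counting is not given in the sources used here, so reads of antisense genes may be included. Counts were tested with edgeR 4.0.16 in R 4.3.3: filterByExpr, TMM scaling, and a robust quasi-likelihood fit of all 9 libraries by group. Two-sided p-values were adjusted by Benjamini-Hochberg over the 17584 genes tested, and 0.05 was the threshold. SEs and 95% intervals were derived from the F statistic. Log2 CPM used a prior count of 2. Total counts were 47633344 to 58546847 per library. The script was tested on simulated data. Replicates were compared by a chi-square statistic per gene, which was at least 59.7 (about 1 for repeat sequencing), so no library was taken for a repeat of another. Whether 2 libraries share an animal is not settled by it. Alternatives were RLE, upper-quartile and library-size scaling, no filter, DESeq2 1.42.0, limma-voom (limma 3.58.1), the 6 libraries of a comparison alone, a replicate block and leaving out each library. By rule all 5 genes were named, and 2 further identifiers for likeness in pattern. The genes, lists and tests were chosen with earlier results of these data known. The planned lists of pathway genes and of cell type markers were not computed, since no identifier of the table could be paired with a symbol.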

Additional observations from a re-analysis of the deposited data

How the results depend on the processing

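Under the 8 alternatives other than leaving out libraries, all 5 genes kept the sign of their fold in all 3 comparisons, and in MSC against control all 5 stayed called. The median fold over all genes shifted by under 0.1 (log2) with scaling. In MSC against CKD, where 2 of the 5 genes were called, DESeq2 called 4, limma-voom 5 and the fit with the replicate block 5. Over all tested genes these fits called 5571, 4618 and 4493, against 4010 in the main fit. The log2 folds newly past the threshold were those of C3 (2.47 with limma-voom, 2.30 with the replicate block), Ptprc (1.40 with DESeq2, 1.505 with limma-voom, 1.499 with the block) and Cd68 (1.44, 1.59 and 1.58 in the same order), and the cause was not tested. The block changed no other call of the 5 genes. The labels do not say that replicate numbers pair the libraries: deviations from the group means correlated above 0.1 in 3 of 9 same-numbered pairs, from -0.102 to 0.265, and in 1 of 18 differently numbered pairs. Those 3 are the pairs of replicate 3: 0.208 control with CKD, 0.13 control with MSC and 0.265 CKD with MSC. Differently numbered pairs ran from -0.302 to 0.298. The latter, CKD replicate 2 with MSC replicate 1, was the highest of all pairs. These values do not settle whether a number links libraries, and the labels give no such link. Between CKD and control kidneys DESeq2 called 71 genes where edgeR called 0.

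Leaving out each library in turn leaves fewer samples. The number called among the 5 genes then ran from 0 to 4 in MSC against CKD (4 without CKD replicate 2, and 0 without CKD replicate 1, CKD replicate 3, MSC replicate 1 or MSC replicate 2) and from 4 (without control replicate 3) to 5 in MSC against control. In MSC against CKD the log2 fold ran from 2.19 to 3.54 for Ccl2, 1.11 to 1.77 for Icam1, 1.25 to 3.26 for C3, 1.00 to 1.85 for Ptprc and 1.00 to 1.77 for Cd68. In MSC against control that of C3 ran from 3.41 to 3.87. In CKD against control that of Ccl2 ran from -0.53 to 0.81, the negative value without CKD replicate 2, that of C3 from 0.34 to 2.36 and that of Cd68 from 0.92 to 1.69. Genes called among all tested ran from 0 to 2, from 1499 to 4652 and from 3077 to 5890 in CKD against control, MSC against CKD and MSC against control. The log2 ratio of Cd68 to Ptprc ran from -0.060 (without MSC replicate 1) to 0.22 in MSC against CKD, and was -0.015 without CKD replicate 3. That of Icam1 to Ptprc ran from -0.32 (without CKD replicate 3) to 0.31 in CKD against control, where it was also negative without control replicate 1 (-0.13) and control replicate 2 (-0.017). In MSC against CKD it ran from -0.42 to 0.21 (without CKD replicate 3; 0.10 without MSC replicate 2), and in MSC against control from -0.32 to 0.14 (without MSC replicate 2; 0.11 without control replicate 3). A prior count of 0.5 turned none of the 12 ratios. Counting alone would give an SD of at most 15.1% of a value for the 5 genes, and no alternative varied the depth.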
